A study of Homo sapiens with 8 samples.

Results

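The genes described here encode 10 mitochondrial chaperones and proteases, HSPD1, HSPE1, LONP1, CLPP, CLPX, AFG3L2, SPG7, YME1L1, HTRA2 and TRAP1, chosen by name out of the 62826 genes listed in the deposited gene tables. Proteins enter mitochondria unfolded, and HSPD1 (HSP60) and HSPE1 (HSP10) form the barrel and the lid of the matrix chaperonin that folds them, beside TRAP1, the mitochondrial HSP90. Misfolded or surplus proteins of the matrix are degraded by LONP1 and by the CLPP protease, which is fed by the unfoldase CLPX. The inner membrane carries the m-AAA protease of AFG3L2 and SPG7 (paraplegin), which faces the matrix, and the i-AAA protease YME1L1, which faces the intermembrane space, where the serine protease HTRA2 also works. Mutations of SPG7 and AFG3L2 cause hereditary spastic paraplegia and spinocerebellar ataxia, so these enzymes are studied in neurons in particular.

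RNA was sequenced from LUHMES, a human line of midbrain origin whose v-myc transgene keeps it dividing until tetracycline turns the transgene off, after which the cells become dopaminergic neurons. All cells, labelled wild type, were differentiated for 6 days in 1 mM dbcAMP, a cell-permeable cAMP, with GDNF, a neurotrophic factor (2 ng/mL), and with tetracycline (1 µg/mL). Treated cells (n = 4) received 25 µM antimycin A, which blocks electron flow through complex III, and 10 µM oligomycin, which blocks the ATP synthase, for 8 h, and vehicle cells (n = 4) received DMSO. Replicates are numbered 2 to 5 in both groups, and each stands for an independent batch with 4 technical replicates, for which the tables used here hold 1 library. The comparison asks how transcripts of the mitochondrial chaperones and proteases differ when respiration and ATP synthesis are blocked.

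Treated libraries held 93.8 to 109 M estimated reads and vehicle libraries 93.7 to 110 M. Vehicle replicate 2 stood apart, at -54.8 on the second principal component (10.3% of the variance) against 14.5 to 22.9 for the other vehicle libraries. Transcripts of the 13 protein-coding genes of mtDNA made up 2.14 to 2.90% of the reads in treated libraries, 11.5% in vehicle replicate 2 and 3.27 to 4.33% in the other vehicle libraries. Summed neuron markers (TUBB3, MAP2, DCX, STMN2, ELAVL4) ran from 3540 to 3600 CPM (reads scaled to library size) in treated and from 4480 to 4780 in vehicle libraries, and 4 of the 5 genes were lower in treated cells and none higher (edgeR; 5 lower and none higher at an unadjusted p under 0.05 and by DESeq2, and 2 lower without vehicle replicate 5). Of the 10 dopaminergic markers, TH (log2 fold change 1.04) and KCNJ6 (0.78) rose, DDC (-1.05) and EN1 (-0.80) fell, and LMX1A and FOXA2 stayed under 0.1 CPM in all libraries. DDC was near the floor, at 0.239 CPM in treated and 0.495 CPM in vehicle cells. The summed list ran from 516 to 683 CPM in treated and from 574 to 716 in vehicle libraries. Most of it was SLC6A3, at 570 ± 69.6 CPM in treated and 589 ± 69.4 CPM in vehicle cells (log2 fold change -0.05). Of the 9 markers of glia and microglia, 6 stayed under 0.1 CPM, and the summed list ran from 3.83 to 4.95 CPM in treated and from 2.97 to 4.97 in vehicle libraries. Summed markers of proliferating progenitors ran from 275 to 297 CPM in treated and from 323 to 401 in vehicle libraries, with MKI67, TOP2A and HES1 lower and SOX2 and NES higher. The part of these shifts in the results below was not tested, and in bulk RNA fewer cells of a type and less RNA per cell cannot be told apart.

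Stretches of sequence near the chaperonin and LONP1 start sites are shown. They come from RefSeq promoter windows on GRCh38.p14, from 250 bases before to 50 after a start, of which 12 cover 8 of the 10 genes (not CLPP and YME1L1). HSPD1 and LONP1 were picked because their read levels differed between the groups and their windows held a motif searched for below. YME1L1 and HTRA2 also differed, but YME1L1 has no window and HTRA2 no match. HSPD1 and HSPE1 lie head to head on chromosome 2, with a RefSeq start of HSPE1 105 bases from one HSPD1 start and 539 bases from another. In the first sequence the capitals mark a heat shock element, the alternating NGAAN units to which HSF1 binds (minus strand, chr2:197500061-197500090). Its 4 units end 21 bases upstream of the HSPD1-202 start in GENCODE release 29. They lie upstream of one RefSeq start of HSPD1 and downstream of another. In the second sequence the capitals mark copies of GCATGCGC, the core of the palindrome to which nuclear respiratory factor 1 binds, upstream of LONP1 (minus strand, chr19:5720573-5720702).
HSPD1 heat shock element: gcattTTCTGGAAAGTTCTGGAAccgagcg
LONP1 upstream: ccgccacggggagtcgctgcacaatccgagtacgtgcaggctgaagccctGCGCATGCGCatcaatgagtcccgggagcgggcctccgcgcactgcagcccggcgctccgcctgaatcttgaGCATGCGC

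Searched on both strands, a heat shock element of 3 alternating units occurred in 0.49% of all 35116 windows and in 1 of the 12 windows here, that of HSPD1. GCATGCGC occurred in 3.05% of all windows and in 1 of these 12, that of LONP1, where some copies overlap. TGATGNAA, the core of the C/EBP-ATF response element, occurred in 3.62% of windows and in none of the 12, and TGCAAT, the C/EBP side of that element, in 8.21% and in that of HSPD1. A match describes the letters in these windows only.

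Read levels of LONP1, YME1L1 and HSPD1 rose in treated cells, that of HTRA2 fell, and the other 6 genes did not pass the threshold (edgeR quasi-likelihood test, Benjamini-Hochberg adjusted p under 0.05 over all genes tested). Changes were modest, from -0.64 for HTRA2 to 0.52 for LONP1 as log2 of treated over vehicle. Of all 19785 genes tested, 57.9% passed the same threshold, 27.7% higher and 30.2% lower, so 4 of 10 is no more than the background. The median log2 fold change of the 10 genes was 0.03, against -0.02 for all genes tested, and none reached the change of 1 log2 unit that 17.3% of all genes passed.

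**Figure D1:**
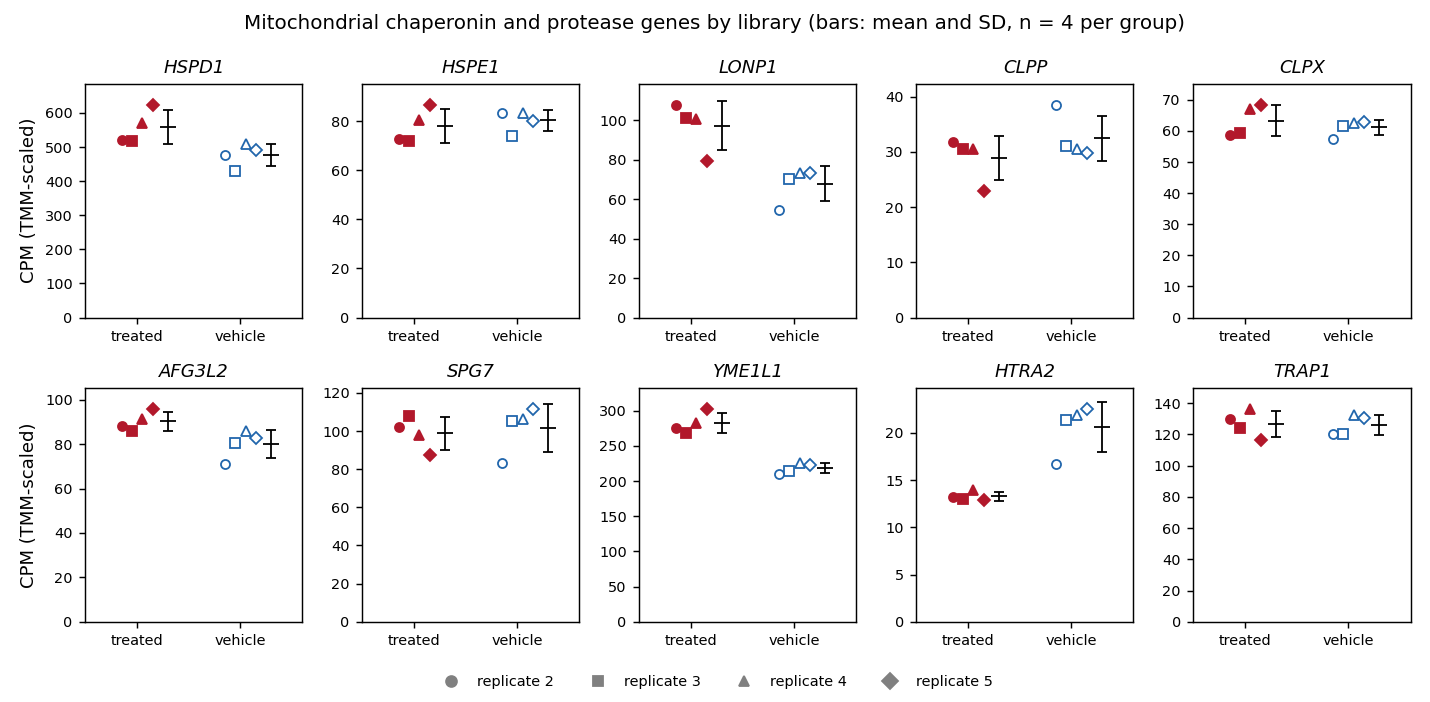
Read levels of the 10 genes in TMM-scaled CPM (y axis, from 0) in treated (filled, left) and vehicle (open, right) libraries, with a marker for each replicate number and the mean and SD beside them. The treated libraries lie above all vehicle libraries for LONP1, YME1L1 and HSPD1 and below them for HTRA2. Vehicle replicate 2 is the lowest vehicle library for LONP1, SPG7, AFG3L2, HTRA2, YME1L1, CLPX and, narrowly, TRAP1, and the highest for CLPP.

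LONP1 (ENSG00000196365.12, hg38 chromosome 19, 5691834 to 5720572, minus strand) encodes the matrix AAA+ protease that clears oxidised and misfolded proteins. It had 108, 101, 101 and 79.3 CPM in treated replicates 2 to 5, against 54.7, 69.97, 73.1 and 73.1 CPM in vehicle replicates 2 to 5. Each treated library lay above each vehicle library, with treated replicate 5 closest to them. The means were 97.1 ± 12.3 CPM in treated and 67.7 ± 8.81 CPM in vehicle cells (SD, n = 4 each), a log2 fold change of 0.52 ± 0.12 SE (edgeR adjusted p = 0.00329). Without vehicle replicate 2, which lay far below the others, the value was 0.43 (adjusted p = 0.00307).

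YME1L1 (ENSG00000136758.20, chromosome 10, 27110112 to 27155266, minus strand), the i-AAA protease, had 276, 269, 282 and 302 CPM in treated libraries, against 209, 215, 225 and 223 CPM in vehicle libraries. All treated libraries lay above all vehicle libraries. Means were 282 ± 14.4 CPM in treated and 218 ± 7.40 CPM in vehicle cells, and the log2 fold change of 0.37 ± 0.06 SE had an edgeR adjusted p of 0.000416.

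HTRA2 (ENSG00000115317.13, chromosome 2, 74529377 to 74533348, plus strand), the intermembrane-space serine protease that binds inhibitor of apoptosis proteins once released, fell. Its levels were 13.2, 13.0, 13.95 and 12.9 CPM in treated libraries, against 16.7, 21.4, 21.9 and 22.5 CPM in vehicle libraries. All treated libraries lay below all vehicle libraries, of which replicate 2 was nearest. Means of 13.3 ± 0.46 CPM in treated and 20.6 ± 2.65 CPM in vehicle cells gave a log2 fold change of -0.64 ± 0.10 SE (edgeR adjusted p = 0.00028), and -0.73 without vehicle replicate 2.

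HSPD1 (ENSG00000144381.18, chromosome 2, 197486581 to 197516737, minus strand) had 521, 518, 572 and 624 CPM in treated libraries, against 477, 430.5, 509 and 490 CPM in vehicle libraries. The groups did not overlap, but the gap between treated replicate 3 and vehicle replicate 4 was small. Means were 559 ± 49.7 CPM in treated and 477 ± 33.5 CPM in vehicle cells, with a log2 fold change of 0.23 ± 0.08 SE (edgeR adjusted p = 0.0319). It did not pass when treated replicate 4 (adjusted p = 0.0755), treated replicate 5 (0.0649), vehicle replicate 3 (0.0978) or vehicle replicate 5 (0.053) was left out. Nor did it pass with gene lengths as an offset (log2 fold change 0.04, adjusted p = 0.776) or with library totals in place of TMM factors (0.13, adjusted p = 0.197). Per length, the means were 496 ± 48.5 TPM in treated and 498 ± 34.3 TPM in vehicle cells.

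Its partner HSPE1 (ENSG00000115541.11, chromosome 2, 197499994 to 197503457, plus strand) had 72.9, 72.0, 80.3 and 86.6 CPM in treated libraries, against 83.3, 74.1, 83.4 and 80.2 CPM in vehicle libraries. The ranges overlapped (log2 fold change -0.04 ± 0.08 SE, edgeR adjusted p = 0.655). TRAP1 (ENSG00000126602.11, chromosome 16, 3651639 to 3717597, minus strand), at 127 ± 8.52 CPM in treated and 126 ± 6.48 CPM in vehicle cells, had a log2 fold change of 0.01 ± 0.07 SE (edgeR adjusted p = 0.917).

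Among the other proteases, CLPX (ENSG00000166855.9, chromosome 15, 65148219 to 65185342, minus strand) had 63.3 ± 5.11 CPM in treated and 61.2 ± 2.48 CPM in vehicle cells (log2 fold change 0.05, edgeR adjusted p = 0.573). CLPP (ENSG00000125656.11, chromosome 19, 6361452 to 6368910, plus strand) had 31.7, 30.4, 30.4 and 22.9 CPM in treated libraries, against 38.5, 31.1, 30.5 and 29.8 CPM in vehicle libraries. Its ranges overlapped, with 1 low treated and 1 high vehicle library (log2 fold change -0.17, adjusted p = 0.245). Without treated replicate 5 the CLPP value was -0.07 and without vehicle replicate 2 it was -0.08.

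AFG3L2 (ENSG00000141385.12, chromosome 18, 12328944 to 12377314, minus strand), the m-AAA subunit that can work alone, had 88.4, 85.7, 91.1 and 95.8 CPM in treated libraries, against 71.0, 80.7, 85.9 and 82.8 CPM in vehicle libraries. Only vehicle replicate 4 reached the treated range. The log2 fold change of 0.17 ± 0.07 SE did not pass with edgeR (adjusted p = 0.0622) and passed with DESeq2 (0.19, adjusted p = 0.0405) and with gene lengths as an offset (0.34, adjusted p = 0.00824). SPG7 (ENSG00000197912.16, chromosome 16, 89490719 to 89557768, plus strand), the other m-AAA subunit, had 102, 108, 98.2 and 87.3 CPM in treated libraries, against 83.0, 105.4, 106.5 and 112 CPM in vehicle libraries. These ranges overlapped throughout (log2 fold change -0.04 ± 0.10 SE, edgeR adjusted p = 0.75).

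The authors' deposited table of coding genes lists all 10 genes. In the authors' deposited table, LONP1 (log2 fold change 0.52) and YME1L1 (0.37) were higher and HTRA2 (-0.62) was lower at a false discovery rate under 0.05, a limit that 57.7% of its 12896 genes passed. HSPD1 had a log2 fold change of 0.15 and a false discovery rate of 0.23 in the authors' deposited table.

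Levels per length, in TPM, ranked HSPD1 and HSPE1 first in both groups and HTRA2 last. Treated libraries held 496 ± 48.5 TPM of HSPD1, 368 ± 30.2 of HSPE1, 166 ± 7.94 of YME1L1, 133 ± 6.75 of TRAP1 and 17.02 ± 0.66 of HTRA2, with no overlap between these neighbours in the order. Between TRAP1 and HTRA2 came CLPP, LONP1, AFG3L2, SPG7 and CLPX, from 84.8 down to 50.6 TPM, and within these 5 each overlapped with the next. In vehicle libraries HSPD1 had 498 ± 34.3 TPM, HSPE1 388 ± 59.6, TRAP1 147 ± 9.44, YME1L1 124 ± 26.3, CLPP 102 ± 4.38 and HTRA2 27.4 ± 5.44. There TRAP1 overlapped with YME1L1 and YME1L1 with CLPP, and CLPP did not overlap with SPG7. From SPG7 through AFG3L2 and LONP1 to CLPX, at 66.0 down to 51.7 TPM, each overlapped with the next, and CLPX did not overlap with HTRA2. LONP1 was thus 6th in treated and 8th in vehicle libraries, among genes whose ranges overlapped.

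The TPM of CLPP was 76.7 to 89.4 in treated and 97.4 to 108 in vehicle libraries, with no overlap, while its CPM overlapped. With gene lengths as an offset its log2 fold change was -0.23 (edgeR adjusted p = 0.109).

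**Figure D2:**
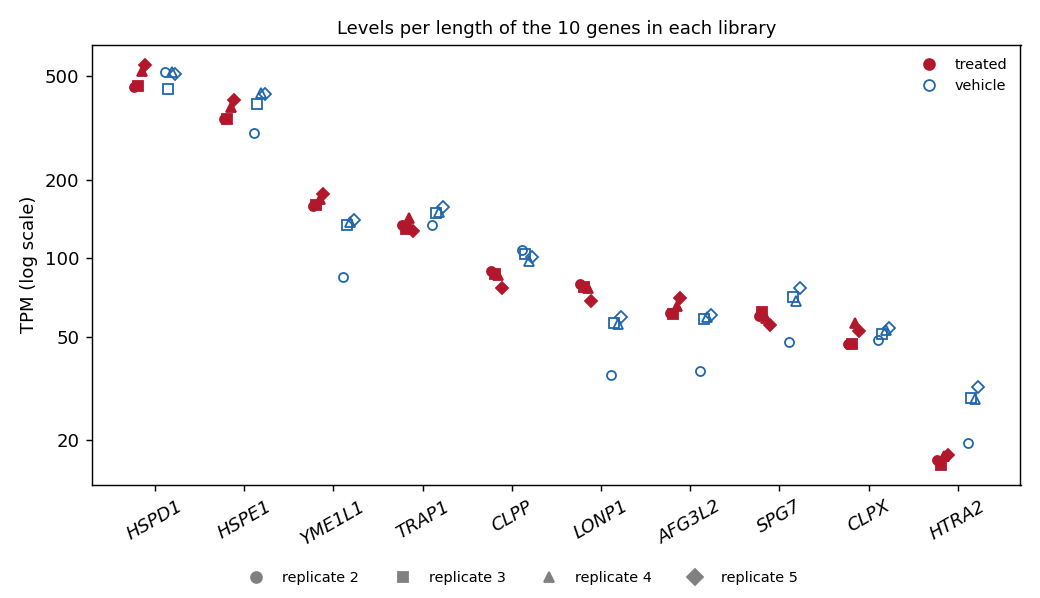
Levels per length in TPM (log y axis) of the 10 genes in treated (filled, left of each pair) and vehicle (open, right) libraries, ordered by the mean in treated libraries, with a marker for each replicate number. HSPD1 and HSPE1 lie above 300 TPM in all libraries, and HTRA2 lies lowest. Vehicle replicate 2 falls below the other vehicle libraries for all genes but HSPD1 and CLPP, and is the highest of them for CLPP.

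Proteins that act together were compared as ratios of TPM within each library, for 4 pairs, with exact two-sided tests that permute the libraries in all 70 ways and cannot give a p below 0.0286. The ratio of SPG7 to AFG3L2, the m-AAA subunits, was 0.97, 1.02, 0.904 and 0.788 in treated libraries, against 1.29, 1.22, 1.16 and 1.26 in vehicle libraries. The groups did not overlap, at means of 0.921 ± 0.101 in treated and 1.23 ± 0.057 in vehicle cells. YME1L1 over AFG3L2, the i-AAA over the m-AAA protease, was 2.58 ± 0.0562 in treated and 2.31 ± 0.00686 in vehicle cells, again with no overlap. Both ratios reached the smallest p, and neither passed after adjustment over the 4 pairs (exact permutation test, adjusted p = 0.0571 for each). Without vehicle replicate 2 both passed (exact permutation test, adjusted p = 0.0381), but neither log2 difference grew. They were -0.402 and 0.156, against -0.425 and 0.158 with all libraries. The adjusted p fell because HSPE1 over HSPD1 then reached the smallest p as well. From read counts in place of TPM the log2 difference of SPG7 over AFG3L2 was -0.21 (adjusted p = 0.152), against -0.42 from TPM.

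HSPE1 over HSPD1, lid over barrel, was 0.741 ± 0.0123 in treated and 0.782 ± 0.132 in vehicle cells (exact permutation test, adjusted p = 0.714). Vehicle replicate 2 had 0.586, whereas the rest of the vehicle group had 0.83 to 0.88, all above the treated range of 0.73 to 0.753. Without that library the log2 difference was -0.19 (exact permutation test, adjusted p = 0.0381), and from read counts over all libraries it was -0.27 (adjusted p = 0.0571), against -0.06 from TPM. CLPX over CLPP, unfoldase over protease, was 0.60 ± 0.0832 in treated and 0.506 ± 0.0424 in vehicle cells, with overlap (exact permutation test, adjusted p = 0.19).

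The deposited transcript tables divide each gene's reads among its transcripts, a measure not used in choosing the genes. By edgeR diffSpliceDGE, transcript usage differed between treated and vehicle cells for HSPD1 (adjusted p = 0.00504), AFG3L2 (adjusted p = 1.6e-05) and SPG7 (adjusted p = 0.00609), with Simes p-values per gene adjusted over all genes. These are 3 of the 10 genes, and 7.32% of the 11747 genes tested were called. LONP1 (0.185) and YME1L1 (0.201) did not pass, nor did the other 5 genes. Without vehicle replicate 2, 5 of the genes were called, with LONP1 at 0.0324 and YME1L1 at 2.99e-09, where 10.7% of all genes were. With the replicate number as a block, HSPD1 did not pass (edgeR adjusted p = 0.058). Without treated replicate 3, only AFG3L2 was called, and without vehicle replicate 3 SPG7 did not pass (edgeR adjusted p = 0.0701). Nor did SPG7 pass when any 1 treated library was left out (adjusted p from 0.728 to 1). The transcript behind its call, SPG7-283, then fell short of 10 reads in 4 libraries and left the test. Those fits therefore do not check that call.

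Transcripts were sorted into classes with GENCODE release 29, in which 160 of 183 annotated transcripts of these genes have the version that the deposited tables name. For HSPD1 only 3 of 13 have it, and HSPD1-210 has an effective length of 4773 bases in the tables against 714 bases in release 29, so its class in the authors' version is not known. SPG7 showed the widest shift between classes. Protein-coding transcripts took 26.2, 23.4, 28.6 and 31.6% of its reads in treated libraries, against 39.8, 41.5, 43.6 and 42.7% in vehicle libraries. Retained-intron transcripts took 43.3, 43.7, 43.4 and 42.6% in treated libraries, against 32.4, 32.4, 31.8 and 31.6% in vehicle libraries. Neither class overlapped between the groups. Its main coding transcript, SPG7-268, held 20.4 ± 2.75% of the reads in treated and 31.9 ± 4.17% in vehicle cells. Retained-intron is the annotated class. Set against SPG7-268, some of these transcripts keep whole introns (SPG7-288, SPG7-256), and others only part of an intron (SPG7-265, SPG7-203).

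LONP1 kept most of its reads in protein-coding transcripts, 88.1 ± 0.683% in treated and 94.6 ± 1.15% in vehicle cells, without overlap. Retained-intron transcripts held 9.71 to 10.9% of its reads in treated and 3.22 to 4.69% in vehicle libraries. Among these was LONP1-206, with 6.03 ± 0.286% of the reads in treated and 1.76 ± 0.618% in vehicle cells, which, set against LONP1-201, keeps intron 11 (298 bases) and no other intron. The coding transcripts LONP1-201 (55.1 ± 11.6% in treated and 69.5 ± 10.0% in vehicle cells) and LONP1-203 (32 ± 12.1% and 23.7 ± 9.83%, in the same order) overlapped between the groups. AFG3L2 had 82.1 ± 1.53% of its reads in coding transcripts in treated and 89.0 ± 1.09% in vehicle cells, again without overlap. Its retained-intron share was 4.6 ± 0.518% in treated and 2.72 ± 0.457% in vehicle cells, on transcripts that keep no whole intron of AFG3L2-201. A larger part of its reads, 13.3 ± 1.12% in treated and 8.28 ± 1.47% in vehicle cells, lay on transcripts not in release 29, whose class is not known.

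The splice sites at which these introns stay in the transcript are shown for LONP1-206 and, for SPG7, for SPG7-288 (4.23 ± 0.309% of SPG7 reads in treated and 1.69 ± 0.64% in vehicle cells), both read from the release 29 transcripts. Neither transcript passed its own test (edgeR adjusted p = 0.0887 for LONP1-206 and 0.617 for SPG7-288). The first 15 bases end a coding exon, the capitals mark the first 2 bases of the intron, and the rest is intron. LONP1 intron 11 lies on the minus strand (chr19:5696640-5696684 shown) and SPG7 intron 7, of 1095 bases, on the plus strand (chr16:89530794-89530838 shown).
LONP1 intron 11: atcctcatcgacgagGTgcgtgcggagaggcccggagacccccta
SPG7 intron 7: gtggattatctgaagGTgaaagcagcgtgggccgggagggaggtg

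HSPD1 differed from these, since its protein-coding share in vehicle replicate 2 lay below that of every treated library. The HSPD1 share was 80.5, 77.8, 79.3 and 82.2% in treated libraries, against 76.7, 88.9, 89.0 and 89.3% in vehicle libraries. The other vehicle libraries lay above every treated one. The transcript behind the usage call of HSPD1 was HSPD1-210, listed as retained-intron, which held 8.02 to 10.2% of HSPD1 reads in treated and 2.80 to 3.41% in vehicle libraries (transcript adjusted p = 0.00259). In AFG3L2 the transcript behind the usage call was AFG3L2-203, a short coding transcript at 2.14 ± 0.379% in treated and 0.0443 ± 0.0886% in vehicle cells (transcript adjusted p = 1.44e-05). In SPG7 it was SPG7-283, listed under nonsense-mediated decay, with 1.01 ± 0.518% in treated and 0.016 ± 0.0319% in vehicle cells (0.000707). AFG3L2-203 and SPG7-283 were almost absent from vehicle libraries. They met the limit of 10 reads in 4 libraries through the treated libraries, where they were high. Their p-values are thus no separate support for a shift in usage. HSPD1-210, LONP1-206, SPG7-288, AFG3L2-203 and SPG7-283 hold under 10% of their gene's reads on average in both groups and were picked after their values were seen.

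**Figure D3:**
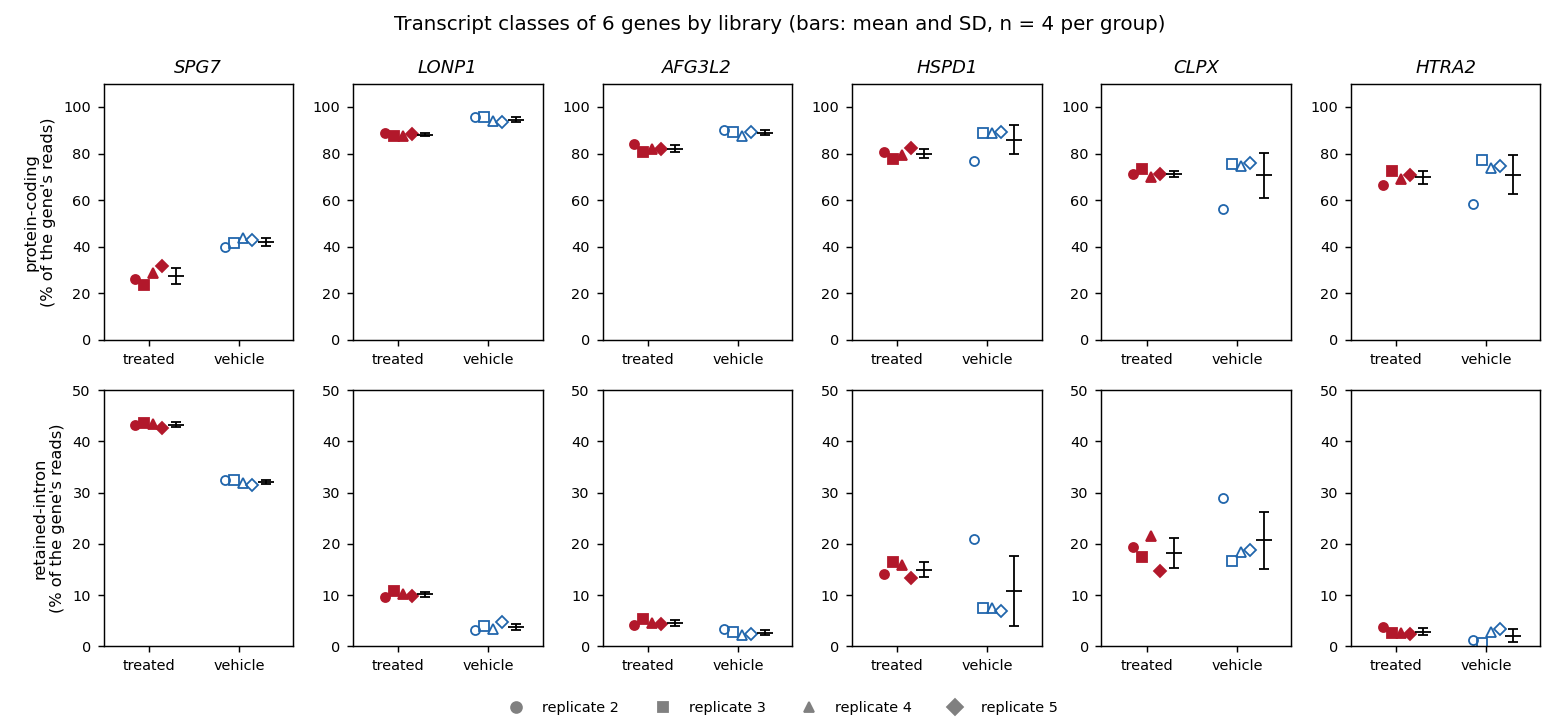
Shares of a gene's reads (y axes, percent) in protein-coding (top) and retained-intron (bottom) transcripts of 6 genes, in treated (filled, left) and vehicle (open, right) libraries, with the mean and SD beside them. SPG7, LONP1 and AFG3L2 separate the groups in both rows, whereas vehicle replicate 2 lies apart from the other vehicle libraries for HSPD1, CLPX and HTRA2. Of all genes with both classes, 16.1% had coding shares that lay below in this way. Separation of retained-intron shares over all genes was not counted.

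Over the 9 genes with a retained-intron transcript, the protein-coding share of SPG7, LONP1 and AFG3L2 lay below every vehicle library in every treated library, and no gene's lay above. Of 7891 genes with both classes, 16.1% lay below in this way and 6.01% above. How often retained-intron shares separate was not counted, so their separation is not a result about these genes. The smallest exact permutation p, 0.0286, was reached by these 3 genes and gave an adjusted p of 0.0857 over the 9, so the shares did not pass. Without vehicle replicate 2, 6 genes lay below, as did 25.8% of the 7891 genes. Over these 7891 genes together, coding transcripts took 82.0 to 82.5% of reads in treated libraries. They took 82.0% in vehicle replicate 2 and 83.7 to 84.3% in the other vehicle libraries. The part of this shift in the shares above was not tested.

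Reads of coding transcripts alone, a fit added after the data were seen, differed in their calls from all reads for SPG7 and HSPD1. SPG7 fell by this measure, with 32.9, 31.3, 34.6 and 34.5 CPM in treated libraries, against 42.3, 54.4, 56.9 and 58.2 CPM in vehicle libraries. No treated library reached the vehicle range, and the log2 fold change was -0.67 ± 0.10 SE (edgeR adjusted p = 0.000451). LONP1 (0.42, adjusted p = 0.00904) and YME1L1 (0.37, adjusted p = 0.000524) rose and HTRA2 fell (-0.68, adjusted p = 0.00377) here too. HSPD1 (0.12, adjusted p = 0.284) and AFG3L2 (0.05, adjusted p = 0.513) did not pass. In this fit 54.8% of 14135 genes passed, against 4 of the 10 genes.

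**Figure D4:**
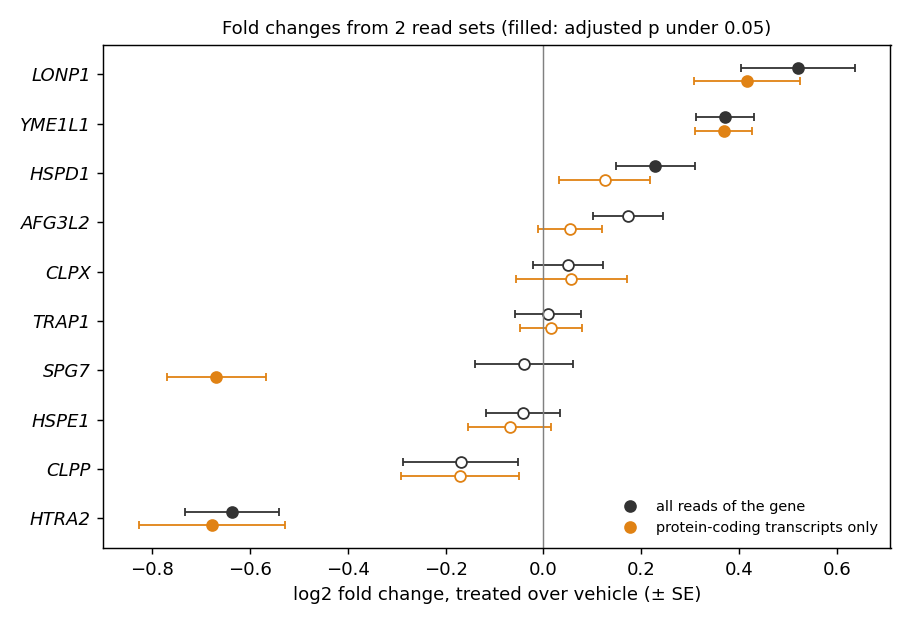
Fold change, as log2 of treated over vehicle (x axis, with SE) for the 10 genes (y axis), from all reads of a gene (black) and from protein-coding transcripts alone (orange), with filled points at an adjusted p under 0.05. SPG7 stands at -0.67 with coding transcripts alone, against -0.04 with all reads, and LONP1, YME1L1 and HTRA2 stay filled in both.

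Among transcripts with at least 10% of a gene's reads, YME1L1-203, CLPP-204, AFG3L2-201 and SPG7-268 took a lower share in every treated library than in any vehicle library, and CLPP-201 a higher one. None of these 5 passed its own transcript test (edgeR adjusted p from 0.689 to 1). How often such transcripts separate over all genes was not counted, so the separation is not a result about these genes. HSPE1-201 took 80.8 ± 1.25% of HSPE1 reads in treated and 84.0 ± 1.35% in vehicle cells, YME1L1-203 81.9 ± 1.51% and 87.1 ± 0.587%, and TRAP1-201 84.3 ± 0.969% and 84.6 ± 3.12%, in the same order. TRAP1-212 held 11.1 ± 1.13% of TRAP1 reads in treated and 8.44 ± 1.16% in vehicle cells. HTRA2-201 held 69.7 ± 2.68% of HTRA2 reads in treated and 70.5 ± 9.14% in vehicle cells, and CLPX-201 71.3 ± 1.35% and 70.6 ± 9.58% of CLPX reads. CLPX-203 (13 ± 2.56% in treated and 15 ± 3.14% in vehicle cells) and CLPX-204 (10.4 ± 2.63% and 8.64 ± 4.20%) overlapped between the groups. CLPP was more divided, with CLPP-204 at 51.2 ± 1.53% in treated and 58.3 ± 6.45% in vehicle cells, CLPP-201 at 19.0 ± 1.38% and 12.6 ± 4.98%, and CLPP-203 at 12.8 ± 1.11% and 12.8 ± 0.976%. AFG3L2-201 held 80.0 ± 1.48% of AFG3L2 reads in treated and 89.0 ± 1.04% in vehicle cells.

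Several of these genes share sequence or position with others. HSPD1 and HSPE1 have 18 and 26 genes with pseudogene names in the tables, none of which averaged 1 CPM, with summed means of 1.58 CPM in treated and 0.965 CPM in vehicle cells for HSPD1. The sources used here do not say whether counting took account of strand, so reads of overlapping genes on opposite strands may not be told apart. The annotated span of HSPD1 overlaps HSPE1, HSPE1-MOB4 and MOB4 on the opposite strand, and the part of this overlap in the HSPD1 and HSPE1 values was not tested. HSPE1-MOB4, a read-through of HSPE1 and its neighbour, averaged 4.77 ± 1.35 CPM in treated and 1.98 ± 1.20 CPM in vehicle cells (log2 fold change 1.26, edgeR adjusted p = 0.0334). MOB4 fell by 0.35 on the log2 scale (adjusted p = 0.00254), from 80.8 CPM in vehicle to 63.3 CPM in treated cells.

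On the strand opposite HTRA2, AUP1 (log2 fold change 0.40, edgeR adjusted p = 0.00134) and LOXL3 (0.56, adjusted p = 0.00558) rose, while HTRA2 fell. TUBB6, opposite AFG3L2, fell by 1.09 on the log2 scale (adjusted p = 4.93e-06). RPL36, opposite LONP1, had a log2 fold change of 0.22 (adjusted p = 0.054), MASTL, opposite YME1L1, of -0.08 (0.32) and DNASE1, opposite TRAP1, of -0.08 (0.406). ENSG00000263235, on the strand of TRAP1, fell by 0.67 (adjusted p = 0.00289).

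Related genes were taken as 6 lists of 58 genes, of which 20 were higher and 10 lower in treated cells. Among all genes tested, 57.9% passed, 27.7% higher and 30.2% lower, and the counts of each list below are to be set beside these shares. No list was tested as a whole. In the mitochondrial HSP70 machine, which pulls proteins into the matrix and hands them to the chaperonin, 3 of 9 genes rose and 1 fell. GRPEL2, a nucleotide exchange factor, had 127 ± 6.05 CPM in treated and 35.5 ± 1.65 CPM in vehicle cells (log2 fold change 1.83, edgeR adjusted p = 1.87e-08). HSPA9, the mitochondrial HSP70 itself, had 531 ± 17.5 CPM in treated and 308 ± 23.5 CPM in vehicle cells (0.79, adjusted p = 6.16e-06). Release 29 coding transcripts hold only 0.278% of HSPA9 reads in treated and 2.13% in vehicle cells, and from these alone its log2 fold change was -2.10 (adjusted p = 0.222). DNAJC19, a co-chaperone of the import motor, fell by 0.39 (adjusted p = 0.00228), a call lost with gene lengths as an offset (adjusted p = 0.0767). The list's median was 0.24.

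Of 12 other mitochondrial proteases and peptidases, 2 rose and 6 fell (median -0.24), and 4 fell when treated replicate 3, treated replicate 4, vehicle replicate 3 or vehicle replicate 4 was left out. XPNPEP3, an aminopeptidase, rose (0.44, edgeR adjusted p = 0.000216; not with the length offset, 0.108), as did IMMP1L, a subunit of the inner membrane peptidase (0.44, adjusted p = 0.00243). MIPEP, the intermediate peptidase of import, fell to 5.46 ± 0.222 CPM in treated cells, against 9.76 ± 0.884 CPM in vehicle cells (-0.84, adjusted p = 2.34e-05), and PITRM1, the presequence protease, had a log2 fold change of -0.38 (adjusted p = 0.00023), or -0.73 from coding transcripts alone. Of 7 protease scaffolds and other mitochondrial AAA proteins, 2 passed in edgeR, both lower, and 1 was higher at an unadjusted p under 0.05 and by DESeq2. CLPB, a disaggregase of the intermembrane space, had 31.2 ± 1.59 CPM in treated and 51.2 ± 1.97 CPM in vehicle cells (-0.71, edgeR adjusted p = 7.59e-06). AFG1L had a log2 fold change of -0.43 (adjusted p = 0.000863; with the length offset 0.211). The list's median was -0.04.

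Of 13 substrates and partners of the 10 proteins, 5 passed in edgeR, all higher (median 0.12), and none was lower at an unadjusted p under 0.05 or by DESeq2. Without treated replicate 5, 2 were lower. They include ALAS1, the first enzyme of haem synthesis and a LONP1 substrate, at 69.7 ± 1.96 CPM in treated and 44.6 ± 3.63 CPM in vehicle cells (0.64, edgeR adjusted p = 2.98e-05), and TIMM17A, an import channel subunit degraded by YME1L1, at 103 ± 7.01 CPM in treated and 62.8 ± 5.44 CPM in vehicle cells (0.72, adjusted p = 3.38e-05). Of 11 cytosolic and endoplasmic reticulum counterparts, 5 passed in edgeR, all higher (median 0.11), and none was lower at an unadjusted p under 0.05 or by DESeq2. With library totals in place of TMM factors 2 passed, and without treated replicate 4 or vehicle replicate 3, 3 passed. HSP90B1, the HSP90 of the endoplasmic reticulum, had 1147 ± 102 CPM in treated and 551 ± 58.9 CPM in vehicle cells (1.06, edgeR adjusted p = 6.55e-06), and HSP90AA1, a cytosolic paralog of TRAP1, had a log2 fold change of 0.39 (adjusted p = 0.00449).

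Each of the 6 genes listed as regulators of the mitochondrial unfolded protein response passed, 5 higher and 1 lower (median 2.55). ATF4 had 821 ± 41.3 CPM in treated and 252 ± 31.4 CPM in vehicle cells, ATF5 473 ± 65.6 and 44.7 ± 10.1 CPM, DDIT3 72.6 ± 2.20 and 5.99 ± 1.53 CPM, CEBPB 72.8 ± 16.3 and 0.695 ± 0.156 CPM, and HSF1 97.0 ± 15.9 and 55.9 ± 8.91 CPM, in the same order. Their log2 fold changes were 1.70, 3.41, 3.60, 6.71 and 0.79, with edgeR adjusted p-values from 1.43e-08 for CEBPB to 0.000907 for HSF1. From coding transcripts alone, which hold 4.8% of ATF4 reads in treated and 10.1% in vehicle cells, the ATF4 value was 0.66 (adjusted p = 0.00143). SSBP1, the mitochondrial single-stranded DNA-binding protein, fell by 0.36 (adjusted p = 0.0089). By comparison, the 3 of the 10 chaperone and protease genes that rose had log2 fold changes from 0.23 to 0.52, values given side by side with no test of the difference.

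**Figure D5:**
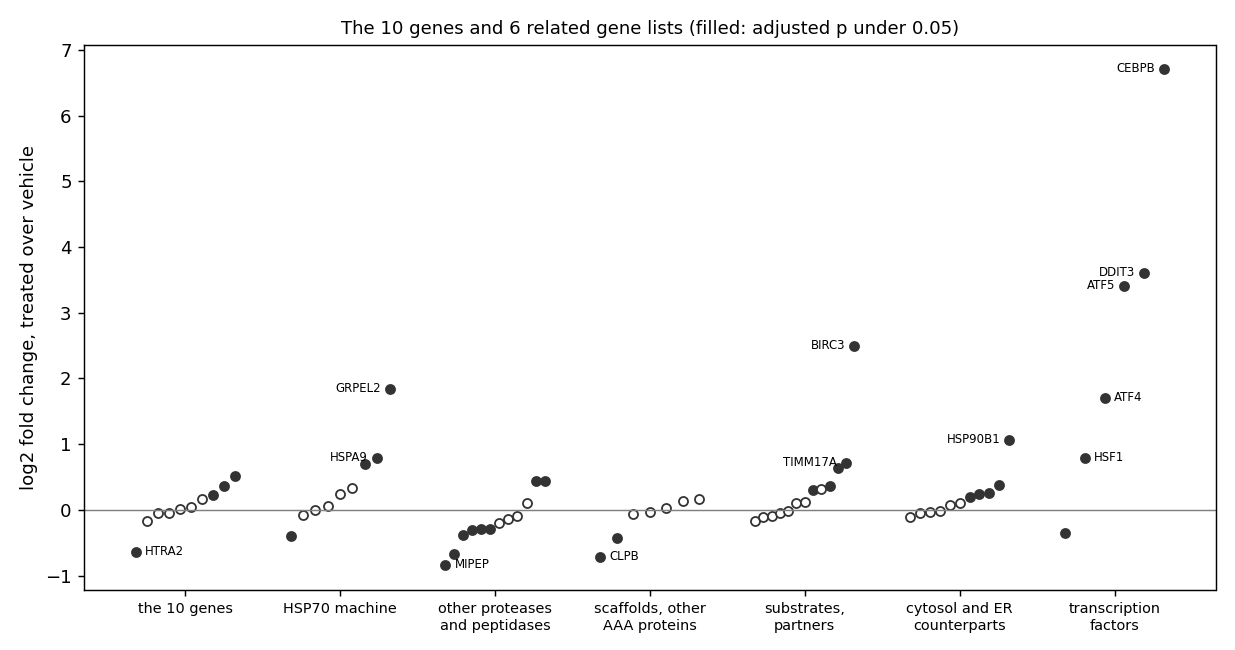
Fold change, as log2 of treated over vehicle (y axis) for the 10 genes (left) and 6 related lists, each gene a point, filled at an adjusted p under 0.05, with genes beyond 0.7 in size and HTRA2 named. The 10 genes lie between -0.64 and 0.52, whereas CEBPB, DDIT3, ATF5 and ATF4 lie between 1.70 and 6.71.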

How the data were processed

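Poly(A) RNA of 4 treated and 4 vehicle libraries was measured, from 1.3 µg of total RNA per the labels' protocols. Per the file headers, the authors deposited for each library a gene and a transcript table of estimated counts, TPM (scaled by effective length and library total) and effective lengths. Which program made them is not stated in the labels or headers. Per the submitters' processing notes, HISAT2, SAMtools, StringTie and hg38 are named, with no role or version given. Coding genes have a table of the authors, with, per the file headers, normalised signal (unit unnamed), log2 fold change, false discovery rate and p-value. The deposited lncRNA table was not used here.

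The 10 genes and the lists, motifs and tests were chosen with earlier results of these data known. Estimated counts were rounded, filtered with filterByExpr, scaled by TMM and fitted over all genes with edgeR 4.0.16 in R 4.3.3 (quasi-likelihood F-test, no covariate, Benjamini-Hochberg adjusted p under 0.05). SEs were derived from the fold changes and their F statistics. CPM are on TMM-scaled totals. Transcript usage was tested with diffSpliceDGE for transcripts that reached 10 reads in 4 or more libraries, and takes no account of error in assigning reads to transcripts. Shares and ratios had exact two-sided permutation tests over the 70 assignments. Gene coordinates and transcript classes came from GENCODE release 29 on hg38, in an earlier version than the tables for some transcripts, and symbols from a supplied name table. All 10 genes matched 1 identifier each. No 2 libraries agreed within sampling noise. Scripts were tested on simulated data, where the gene fit recovered 76% of changes of 0.5 log2 units and 100% of changes of 1. Named list genes are up to 2 higher and 2 lower per list with the smallest adjusted p, plus ATF4, ATF5, DDIT3 and HSF1, and transcripts with at least 10% of a gene's reads. Alternatives were DESeq2 1.42.0, other scalings, filters, a length offset, the replicate number as a block and leaving out each library. p-values measure the spread between the batches as labelled.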

Additional observations from a re-analysis of the deposited data

Results flagged for a closer look

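Groups of 4 libraries were screened for a library far from the rest, by its gap to the nearest other library over the group's range against Dixon's limit. Of 104 groups, 14 passed, where chance gives about 1 in 20, and 8 of the 14 were vehicle replicate 2.

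Vehicle replicate 2 stood at 54.7 CPM for LONP1 (other vehicle libraries 69.97 to 73.1), 38.5 CPM for CLPP (29.8 to 31.1), 26.5 CPM for XPNPEP3 (24.3 to 24.6), 54.7 CPM for TIMM17A (65.1 to 66.3) and 1810 CPM for STMN2 (1273 to 1317). Its protein-coding share was 76.7% for HSPD1 (88.9 to 89.3%) and 56.3% for CLPX (74.5 to 76.1%), and its HSPE1 to HSPD1 ratio was 0.586 (0.83 to 0.88). Treated replicate 5 stood at 22.9 CPM for CLPP (other treated libraries 30.4 to 31.7), 13.4 CPM for EN1 (17.6 to 18.4), 73.3 CPM for HSF1 (103 to 107) and 1140 CPM for STMN2 (1009 to 1022), with an HSPE1 protein-coding share of 87.1% (84.0 to 84.5%). Vehicle replicate 4 stood at 0.447 CPM for SOX2 (0.253 to 0.285).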

How the results depend on the processing

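LONP1, YME1L1 and HTRA2 kept their direction and their call under all 16 alternatives, with log2 fold changes of 0.42 to 0.62, 0.27 to 0.50 and -0.74 to -0.60. HSPD1 kept its direction (0.04 to 0.27) and lost its call in 8 of 16. Counts of the 10 genes ran from 2 to 4 higher and stayed at 1 lower, except with coding transcripts alone, where 2 were lower. Leaving out 1 library moved the called transcript usage count between 1 and 5, the genes with a coding share below the vehicle range between 3 and 6, and those above between 0 and 1. The log2 ratio differences then ran from -0.19 to 0.00 (0.001 without vehicle replicate 3) for HSPE1 to HSPD1, from -0.48 to -0.35 for SPG7 to AFG3L2 and from 0.15 to 0.17 for YME1L1 to AFG3L2. From read counts they were -0.27, -0.21 and 0.20 in that order. With library totals in place of TMM factors, all genes split into 4280 higher and 7023 lower, against 5484 and 5977, and their median moved to -0.12. The cause of these shifts was not tested.

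Both groups carry the same replicate numbers, and the labels do not say whether a number marks a shared differentiation. The deviations of same-numbered libraries had correlations of -0.08, 0.03, 0.03 and -0.00136 for numbers 2 to 5, and none was best with its own number. With the replicate block, 3 of the 10 genes were higher and 1 lower, and over all genes 5163 were higher and 5601 lower. Transcript usage with the block called 2 genes, with HSPD1 at an edgeR adjusted p of 0.058, and no other call of the 10 genes changed. For the ratios, exact sign flips within number cannot go below p = 0.125. At 4 libraries a group, an exact test over 4 pairs or 9 shares passes only where several reach the smallest p together.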
